A study of Mus musculus with 18 samples.

Results

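The 8 genes described here encode classical targets of the aryl hydrocarbon receptor (AhR), most of them enzymes of foreign-compound metabolism: Cyp1a1, Cyp1b1, Tiparp, Nqo1, Aldh3a1, Xdh, Fmo2 and Selenbp1. They were taken by symbol from the rows of the deposited array table, and 9 of the 33793 rows carry 1 of these symbols alone, since Tiparp has 2 rows. They were followed over 6 groups of 3 arrays each, 18 in all. Epidermal sheets came from shaved back skin of female mice on a B6;129 background, either AhR-/- (KO, from the null line B6.129-AhRtm1Bra/J) or AhR+/+ littermates (WT). KO and WT skin was taken unstressed (0 h), or 6 h or 24 h after mechanical stress by tape stripping, in which adhesive film removes the outermost cornified layers. The null allele is carried by every cell of the KO mice, so keratinocytes, Langerhans cells and T cells of the sheet all lack AhR, and no age is stated for the mice in the labels. Epidermal sheets hold several cell types, and in such bulk RNA fewer cells of a type and less RNA per cell cannot be told apart.

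AhR rests in the cytoplasm in a complex with HSP90 and other chaperones. When it binds a ligand, such as a dioxin, a polycyclic hydrocarbon or a tryptophan photoproduct formed in skin, it enters the nucleus, pairs with ARNT and binds short DNA elements with the core GCGTG. Cyp1a1, Cyp1b1 and Tiparp are textbook direct targets, and their products oxidise ligands or, for Tiparp, act back on AhR itself. Nqo1 and Aldh3a1 are in the AhR gene battery too, and Nqo1 is shared with NRF2, the transcription factor of the antioxidant response.

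The sequences before the start sites are shown because GCGTG is the core of the elements that AhR binds. RefSeq promoter windows (GRCm38.p6, 250 bases before to 50 after the start) matched 6 of the 8 genes by symbol, with 2 windows for Fmo2. The core GCGTG was searched on both strands and had matches in the windows of Cyp1a1, Cyp1b1, Tiparp and Selenbp1. It stands in 32.4% of all 32851 windows of the same length, so a match is a description and not a binding site. Each line gives the stretch with 40 bases on both sides of the match, read on the gene's strand, with the core in capitals (CACGC where it lies on the other strand, GCGTGCGTG where 2 matches overlap by 1 base).
Cyp1a1, chr9:57697519-57697603, + strand: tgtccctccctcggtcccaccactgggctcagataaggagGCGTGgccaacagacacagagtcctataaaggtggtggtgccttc
Cyp1b1, chr17:79715093-79715177, - strand: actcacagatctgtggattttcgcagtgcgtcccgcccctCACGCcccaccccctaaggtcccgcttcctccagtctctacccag
Tiparp, chr3:65528237-65528321, + strand: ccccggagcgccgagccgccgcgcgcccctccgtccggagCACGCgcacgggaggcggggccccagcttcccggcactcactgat
Selenbp1, chr3:94932862-94932950, + strand: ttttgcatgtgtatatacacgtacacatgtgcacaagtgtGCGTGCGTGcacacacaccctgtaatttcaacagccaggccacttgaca
The matches begin 54 bases before the start in Cyp1a1, 76 in Cyp1b1, 170 in Tiparp and 181 in Selenbp1. The windows of Nqo1 and Fmo2 held no GCGTG, and none of the 6 genes' windows held the antioxidant element TGACNNNGC, which is in 12.4% of all windows. No match says only that these letters are not in this window.

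The values are on a log scale, taken as log2, and had been centred on the median of each row, so they show differences between arrays and no level. How bright a gene was on the array cannot be read from them, and neither can the presence or absence of a cell type. Differences were tested with limma's moderated test, fitted on all 18 arrays and adjusted by Benjamini-Hochberg over the 23521 rows that name 1 gene, with 0.05 as the threshold for passing. Over the 18 arrays the SD of the 9 rows ran from 0.19 for the second Tiparp row and for Cyp1a1 to 0.41 for the first Tiparp row, against a median of 0.14 over all rows tested. Cyp1a1 lay at percentile 72.6 of all rows in this spread, and the first Tiparp row at percentile 98.3. Ahr itself lay at -0.13, 0.04 and -0.02 in KO at 0 h, against 0.63, 0.16 and 0.07 in WT, at -0.63, -0.65 and -0.77 in KO at 6 h, against 0.06, 0.58 and 0.64 in WT, and at -0.59, -0.74 and -0.64 in KO at 24 h, against -0.01, 0.12 and 0.01 in WT. Every KO array was below every WT array of its time, with differences of -0.32 (adjusted p = 0.556) at 0 h, -1.11 (adjusted p = 0.00549) at 6 h, -0.70 (adjusted p = 0.22) at 24 h and -0.71 (SE 0.0827, adjusted p = 0.000939) in the average. The files do not say whether the row's probes lie in the deleted part of the gene, and the labels are thus checked in part. Markers of epidermal T cells (8 of 10 measured) averaged -1.01 to -0.28 in KO arrays and 0.35 to 0.76 in WT arrays at 0 h, -0.45 to -0.16 in KO and 0.54 to 0.69 in WT at 6 h, and -0.77 to -0.68 in KO and 0.13 to 0.58 in WT at 24 h. Markers of suprabasal keratinocytes (7 of 7 measured) averaged -0.54 to -0.20 in KO and -0.12 to 0.35 in WT at 6 h, and -0.43 to -0.12 in KO and 0.01 to 0.06 in WT at 24 h. At 0 h, 3 further sets had all KO arrays below all WT arrays. Langerhans cell markers (7 of 8 measured) averaged -0.80 to -0.15 in KO and -0.04 to 0.42 in WT, sebaceous gland markers (7 of 8) -0.56 to -0.21 in KO and -0.04 to 0.18 in WT, and basal keratinocyte markers (6 of 7) -0.14 to -0.00036 in KO and 0.03 to 0.17 in WT. The remaining sets, for hair follicle, dermal fibroblasts, endothelium, adipocytes, melanocytes and skeletal muscle, overlapped between genotypes at each time. The part of these shifts in the results below was not tested.

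No target enzyme passed between KO and WT at any time. At 0 h 0 of 9 rows passed, against 0.0978% of all rows; at 6 h 0 of 9, against 2.18%; at 24 h 0 of 9, against 0.017%; and averaged over the 3 times 0 of 9, against 0.374%. At an unadjusted p under 0.05 the counts were 3, 3, 0 and 4 of 9 rows, while 8.48%, 15.8%, 6.71% and 12.3% of all rows had such a p. The differences were small and mostly negative. The rows below 0 numbered 7 of 9 at 0 h, 8 at 6 h, 7 at 24 h and 8 in the average, where 51.5%, 47.5%, 50.3% and 49.8% of all rows were below 0. The median KO minus WT difference of the 9 rows was -0.21 at 0 h, -0.13 at 6 h, -0.12 at 24 h and -0.20 in the average, and the medians of all rows lay between -0.0034 and 0.0065. Every KO array lay below every WT array in 4 of 9 rows at 0 h (Cyp1a1, Nqo1, Aldh3a1 and Xdh), against 7.71% of all rows. At 6 h this held for 3 of 9 rows (Cyp1b1, Nqo1 and Fmo2), against 10.3%, and at 24 h for 2 of 9 (Cyp1b1 and the first Tiparp row), against 6.53%. The labels also give each array a 4-digit number without a meaning. Within numbers below 3000 and from 3000 up, the 4 rows apart at 0 h had these sizes, whose sign the lack of overlap fixes: Cyp1a1 differed by -0.35 and -0.21, Nqo1 by -0.14 and -0.19, Aldh3a1 by -0.67 and -0.42 and Xdh by -0.64 and -0.21. The members had been chosen with earlier results of these arrays known.

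**Figure D1:**
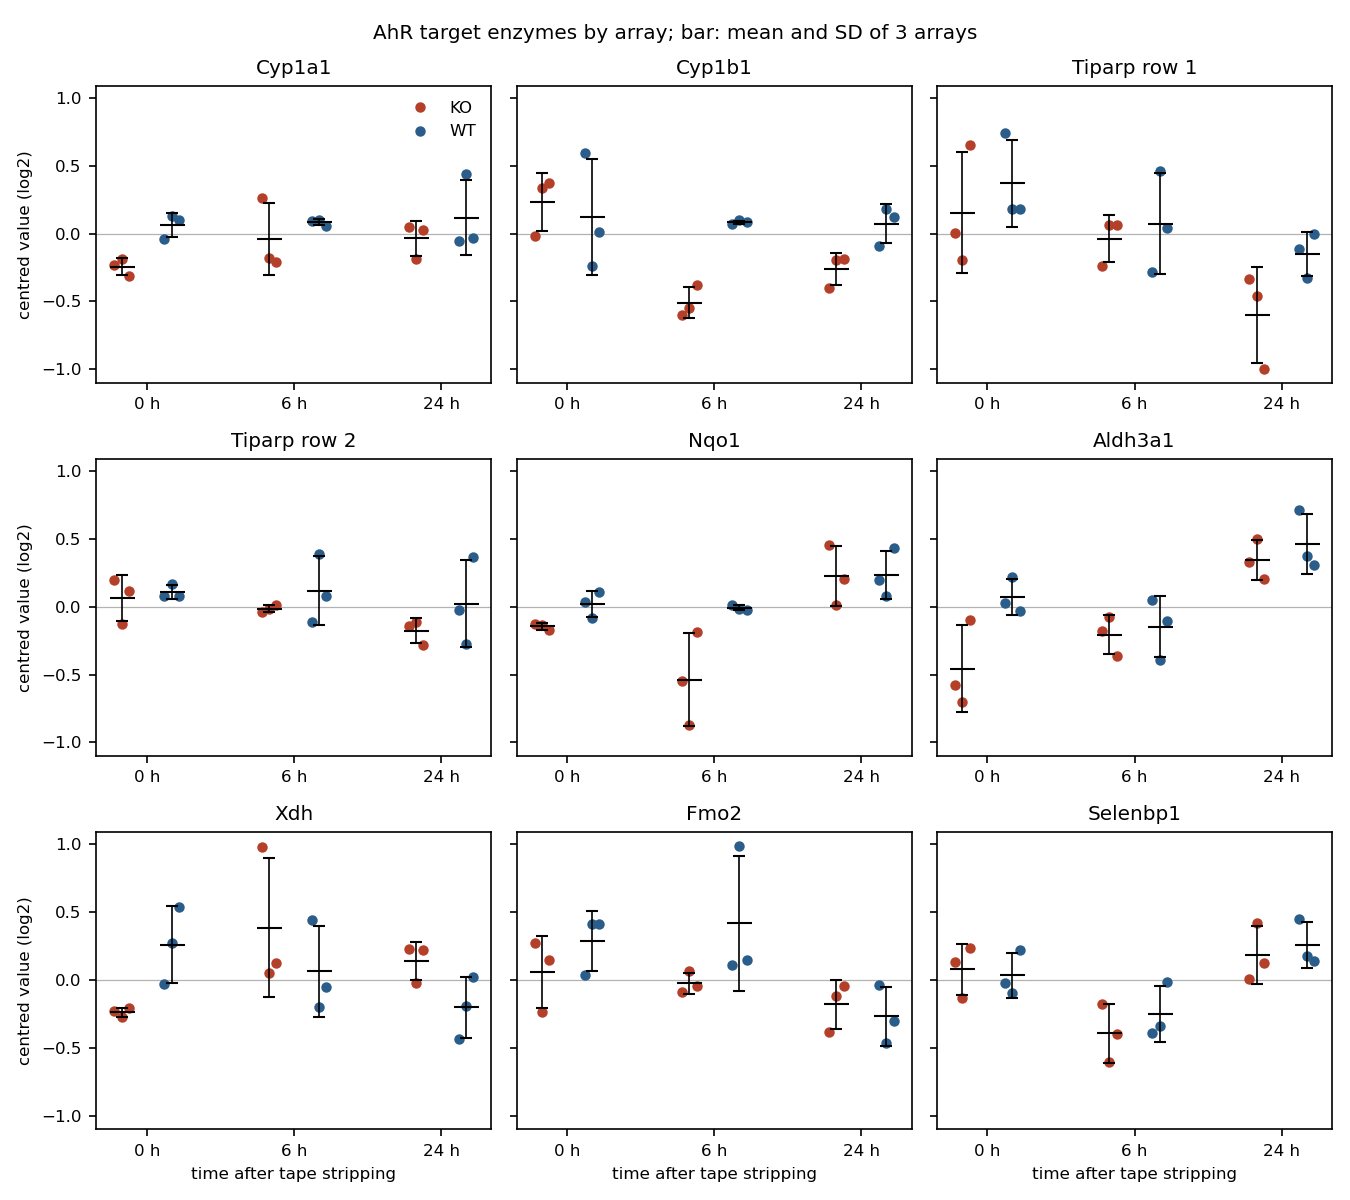
Centred log2 value of each of the 9 rows in each array (points), with KO left of WT at 0, 6 and 24 h; the horizontal bar is the mean and the error bar the SD of 3 arrays. Cyp1b1 lies between -0.60 and -0.38 in the KO arrays of 6 h and between 0.07 and 0.10 in the WT arrays of 6 h, and Aldh3a1 is above 0 in all arrays of 24 h.

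Cyp1a1, the monooxygenase most used as a readout of AhR activity, differed little. At 0 h it was -0.23, -0.19 and -0.31 in KO, against -0.04, 0.13 and 0.10 in WT. At 6 h it was 0.27, -0.18 and -0.21 in KO, against 0.09, 0.10 and 0.06 in WT. The KO array at 0.27 (replicate 1) lay above all WT arrays of 6 h, and the other KO arrays lay below them. At 24 h it was 0.05, -0.19 and 0.03 in KO, against -0.05, 0.44 and -0.03 in WT, and the groups overlapped. The KO minus WT difference was -0.31 (SE 0.131, adjusted p = 0.527 by limma, 3 arrays per group) at 0 h, -0.13 at 6 h and -0.15 at 24 h. At 6 h it was -0.27 within label numbers below 3000 and 0.17 for the pair from 3000 up. Averaged over the times KO stood at 0.873 of WT, with an unadjusted 95% interval of 0.78 to 0.976 (adjusted p = 0.304). Within label numbers from 3000 up the averaged difference was -0.065. The centred values do not show whether the row was above the array's background.

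Cyp1b1, the extrahepatic cytochrome of the same family, had the largest average difference of the 9 rows. At 0 h it was -0.02, 0.34 and 0.37 in KO, against 0.59, -0.24 and 0.02 in WT, with full overlap. At 6 h it was -0.60, -0.55 and -0.38 in KO, against 0.07, 0.10 and 0.08 in WT. At 24 h it was -0.40, -0.19 and -0.19 in KO, against -0.09, 0.18 and 0.13 in WT. The groups were apart at 6 h and 24 h, with WT close together at 6 h. The difference was -0.59 (SE 0.162) at 6 h, 0.663 of WT with an unadjusted 95% interval of 0.522 to 0.843 (adjusted p = 0.072), and -0.33 at 24 h (adjusted p = 0.752). Within the 4 arrays of 6 h whose label number was below 3000 (replicates 2 and 3 of both genotypes) the difference was -0.55 and passed in a fit on the arrays of that number class (adjusted p = 0.0359), while the pair with higher numbers differed by -0.67 (adjusted p = 0.427).

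Tiparp encodes a mono-ADP-ribosyltransferase that AhR induces and that promotes loss of AhR in turn. Its row 17398082 ran from -0.999 to 0.74 and its row 17548270 from -0.28 to 0.39, and over the 18 arrays, which share groups and processing, the rows correlated with r = 0.70. In row 17398082 the values at 24 h were -0.33, -0.46 and -0.999 in KO, against -0.11, -0.32 and 0.00 in WT. KO lay just below WT there, with 1 KO array far below the others. The KO minus WT differences of this row were -0.21, -0.11 and -0.45 at 0, 6 and 24 h, and those of row 17548270 were -0.04, -0.13 and -0.20. The rows had the same sign at each time, and the smallest adjusted p of the 6 was 0.733.

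Nqo1, the quinone reductase shared by AhR and NRF2, had its largest genotype difference at 6 h. At 0 h it was -0.13, -0.13 and -0.17 in KO, against 0.04, -0.08 and 0.11 in WT. At 6 h it was -0.55, -0.87 and -0.19 in KO, against 0.02, -0.01 and -0.02 in WT. At 24 h it was 0.46, 0.01 and 0.21 in KO, against 0.20, 0.08 and 0.43 in WT. The groups were apart at 0 h and 6 h, with the KO arrays of 6 h widely spread, and overlapped at 24 h. The difference was -0.17 (adjusted p = 0.873) at 0 h, -0.53 (SE 0.142, adjusted p = 0.0671) at 6 h and -0.01 (adjusted p = 0.996) at 24 h. At 6 h KO stood at 0.692 of WT, with an unadjusted 95% interval of 0.561 to 0.854. The difference at 6 h was -0.51 within label numbers below 3000 and -0.57 for the pair from 3000 up.

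Aldh3a1, an aldehyde dehydrogenase known from the cornea that oxidises aldehydes of lipid peroxidation, was lowest in unstressed KO skin. At 0 h it was -0.58, -0.70 and -0.09 in KO, against 0.03, 0.22 and -0.03 in WT, so that replicate 3 of KO lay close to WT. The difference was -0.53 (SE 0.157, adjusted p = 0.286). At 6 h it was -0.18, -0.07 and -0.36 in KO, against 0.05, -0.39 and -0.10 in WT. At 24 h it was 0.33, 0.50 and 0.20 in KO, against 0.71, 0.37 and 0.31 in WT. The groups overlapped at both later times, with differences of -0.06 and -0.12.

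Xdh, which oxidises hypoxanthine and xanthine to uric acid, had a KO minus WT difference below 0 at 0 h and differences above 0 later, with none passing. At 0 h it was -0.23, -0.27 and -0.21 in KO, against -0.03, 0.27 and 0.54 in WT. At 6 h it was 0.98, 0.05 and 0.13 in KO, against 0.44, -0.20 and -0.05 in WT. At 24 h it was 0.23, -0.02 and 0.22 in KO, against -0.43, -0.19 and 0.02 in WT. KO lay below WT at 0 h, and the groups overlapped later, with replicate 1 the highest array of both genotypes at 6 h. The differences were -0.50 (SE 0.222, adjusted p = 0.556), 0.32 (adjusted p = 0.538) and 0.34 (adjusted p = 0.828). The replicate 1 arrays of 6 h carry label numbers from 3000 up; the other 4 arrays differed by 0.22 between genotypes and that pair by 0.54.

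Fmo2, a flavin monooxygenase of nitrogen- and sulfur-containing compounds, and Selenbp1, a selenium-binding protein with methanethiol oxidase activity, differed less steadily. Fmo2 was -0.09, 0.06 and -0.05 in KO at 6 h, against 0.11, 0.99 and 0.15 in WT. KO lay below WT, and 1 WT array (replicate 2) stood far above the rest. The difference was -0.44 (SE 0.204, adjusted p = 0.311) at 6 h, -0.23 at 0 h and 0.09 at 24 h. Without the high WT array the Fmo2 difference at 6 h was -0.15 (adjusted p = 0.803), and without KO replicate 2 of 0 h that at 0 h was -0.077. Leaving out WT replicate 1 of 0 h gave -0.35. Selenbp1 differed by 0.04, -0.14 and -0.07 at 0, 6 and 24 h, with overlap at each time, and over the 3 times KO stood at 0.961 of WT with an unadjusted 95% interval of 0.848 to 1.09. Mouse Selenbp1 has a close relative, Selenbp2, and array probes of near copies may be shared. The Selenbp2 row differed by 0.02, 0.16 and 0.11 at the same times (adjusted p = 0.52 or higher).

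**Figure D2:**
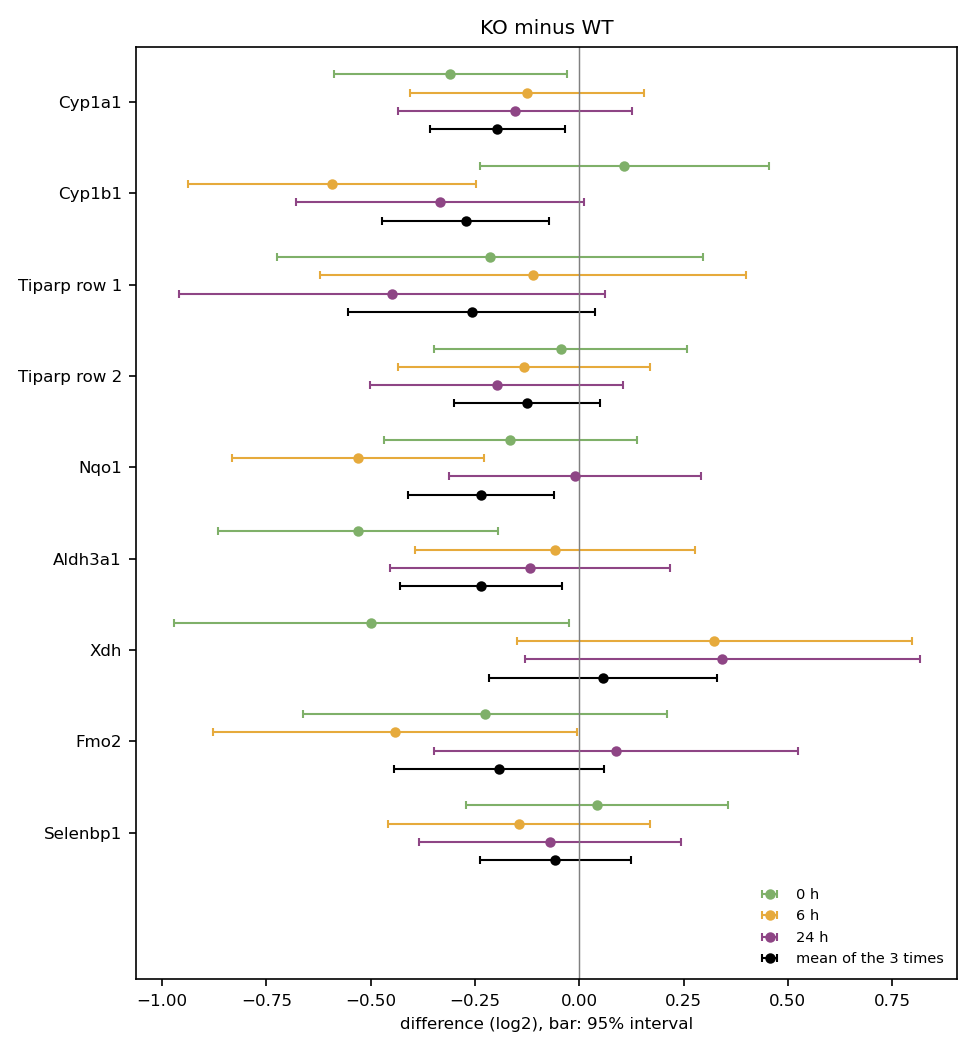
KO minus WT difference (log2) of each of the 9 rows at 0, 6 and 24 h and averaged over the times, with unadjusted 95% intervals from the limma fit on 18 arrays. None passed after adjustment; the average is below 0 in 8 of 9 rows, from -0.27 for Cyp1b1 to 0.06 for Xdh.

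After tape stripping, single enzymes passed within KO skin and none within WT skin, while no difference between these responses passed. Between 6 h and 0 h in KO 1 of 9 rows passed, against 4.98% of all rows, and between 24 h and 0 h in KO 1 of 9, against 9.56%, so neither count is far from the share in the table. In WT 0 of 9 rows passed at 6 h and 0 of 9 at 24 h, against 0% and 0.0298% of all rows by limma (1086 rows had an unadjusted p under 0.05 in the 6 h comparison). At an unadjusted p under 0.05 by limma the member counts in KO were 4 of 9 at 6 h and 4 of 9 at 24 h. In WT they were 0 of 9 at 6 h and 3 of 9 at 24 h. Of all rows, 20.7% and 22.9% had such a p in KO, and 4.62% and 12.5% in WT. The difference in response passed in 0 of 9 rows at 6 h (0.731% of all rows) and in 0 of 9 at 24 h (0% by limma, with 2165 of all rows and 1 of the 9 at an unadjusted p under 0.05), with the smallest adjusted p at 0.17 and 0.405.

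Cyp1b1 fell at 6 h in KO. It averaged -0.51 ± 0.11 at 6 h and 0.23 ± 0.22 at 0 h in KO (SD, n = 3 each), a difference of -0.74 (SE 0.162, limma adjusted p = 0.02) or 0.599-fold with a 95% interval of 0.471 to 0.761. In WT it averaged 0.08 ± 0.01 at 6 h and 0.12 ± 0.43 at 0 h, a difference of -0.04. The difference between these responses was -0.70 (SE 0.229, adjusted p = 0.17). The call in KO was lost without KO replicate 2 of 0 h (adjusted p = 0.0875), without KO replicate 3 of 0 h (0.0847), without KO replicate 2 of 6 h (0.0577) and within the arrays of lower label number, where the difference was -0.45 (adjusted p = 0.202). Within the higher numbers it was -0.95 (adjusted p = 0.0157). The WT values of 0 h spanned -0.24 to 0.59. In WT the difference was 0.20 within the lower label numbers and -0.52 within the higher, so its sign depended on the number class. The difference between the responses was -0.65 within the lower and -0.43 within the higher numbers. In KO the suprabasal keratinocyte markers averaged -0.54 to -0.20 at 6 h and -0.08 to 0.13 at 0 h. The Langerhans cell markers averaged 0.03 to 0.22 at 6 h and -0.80 to -0.15 at 0 h. Also apart were the melanocyte markers (-0.22 to -0.13 at 6 h, -0.08 to 0.28 at 0 h) and, narrowly, the adipocyte markers (0.0175 to 0.068, against -0.067 to 0.0157). The remaining sets overlapped in KO, and the part of these shifts in the result was not tested.

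Aldh3a1 rose at 24 h in KO. It averaged 0.35 ± 0.15 at 24 h and -0.46 ± 0.32 at 0 h in KO (SD, n = 3 each), a difference of 0.80 (SE 0.157, limma adjusted p = 0.00645) or 1.74-fold with a 95% interval of 1.38 to 2.2. In WT it averaged 0.46 ± 0.22 at 24 h and 0.07 ± 0.13 at 0 h, a difference of 0.39 (adjusted p = 0.308), and the arrays of 24 h lay above those of 0 h in both genotypes. The difference between the responses was 0.41 (SE 0.222, adjusted p = 0.627). The call in KO held under all 13 alternatives tried, with differences of 0.68 to 0.98 and adjusted p of 0.00278 to 0.0454. Within label numbers from 3000 up, which hold all arrays of 24 h, it was 0.74. KO had the lower values at 0 h, and KO and WT overlapped at 24 h. In KO the sebaceous gland markers averaged -0.02 to 0.34 at 24 h and -0.56 to -0.21 at 0 h, and the suprabasal keratinocyte markers -0.43 to -0.12 at 24 h and -0.08 to 0.13 at 0 h. Both sets were apart between these times. So were the endothelium markers (0.06 to 0.11 at 24 h, -0.03 to 0.02 at 0 h). The adipocyte markers (0.0219 to 0.099, against -0.067 to 0.0157) and skeletal muscle markers (0.04 to 0.08, against -0.10 to 0.0034) were apart too. The remaining sets overlapped in KO, and the part of these shifts in the result was not tested.

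The other members did not pass against 0 h. In KO, Selenbp1 differed by -0.47 at 6 h (adjusted p = 0.079), Nqo1 by -0.39 (adjusted p = 0.125) and Xdh by 0.62 (adjusted p = 0.118). Without KO replicate 2 of 6 h Nqo1 differed by -0.22, and without KO replicate 1 of 6 h Xdh differed by 0.33. At 24 h in KO the first Tiparp row differed by -0.75 (adjusted p = 0.0628) and Cyp1b1 by -0.49 (adjusted p = 0.0722). The second Tiparp row differed less at 24 h, by -0.24 in KO and -0.09 in WT (limma adjusted p = 0.348 and 0.87). In WT at 24 h the sizes were -0.56 for Fmo2 (adjusted p = 0.261), -0.52 for the first Tiparp row and -0.46 for Xdh. Xdh thus stood higher at 24 h than at 0 h in KO, by 0.38, and lower in WT. Its difference in response was 0.84 (SE 0.314, unadjusted 95% interval 0.17 to 1.51, adjusted p = 0.405). Within label numbers from 3000 up, which hold all arrays of 24 h, Xdh differed by -0.17 in WT and by 0.56 between the responses. Cyp1a1 differed by 0.20 and 0.21 in KO and 0.02 and 0.05 in WT at 6 and 24 h. In KO its arrays of 24 h lay above those of 0 h, narrowly for the closest arrays. Its KO difference at 6 h was 0.04 within label numbers below 3000 and 0.52 from 3000 up.

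A comparison of 24 h with 6 h was added after the values had been seen. Nqo1 rose in KO, to 0.23 ± 0.22 at 24 h against -0.54 ± 0.34 at 6 h (SD, n = 3 each), a difference of 0.76 (SE 0.142, limma adjusted p = 0.02). In WT it was 0.24 ± 0.18 at 24 h and -0.01 ± 0.02 at 6 h, a difference of 0.24 (adjusted p = 0.723). This made 1 of 9 rows in KO, against 1.24% of all rows, and 0 of 9 in WT, against 0%; the difference between genotypes passed in 0 of 9, against 0%. In those comparisons 1833 and 1575 of all rows had an unadjusted p under 0.05 by limma, and 3 and 1 of the 9. The call for Nqo1 was lost without KO replicate 2 of 6 h (adjusted p = 0.0671), the lowest array at -0.87, without KO replicate 1 of 24 h (0.0629) and without KO replicate 3 of 24 h (0.0783). It was also lost within label numbers from 3000 up, where the difference was 0.78 (adjusted p = 0.196), with the number class as a block (0.0656), after quantile normalisation (0.0582) and with the compared groups alone (0.167), and it passed under 6 of 13 alternatives. In KO the epidermal T cell markers averaged -0.77 to -0.68 at 24 h and -0.45 to -0.16 at 6 h. The Langerhans cell markers averaged -0.31 to -0.08 at 24 h and 0.03 to 0.22 at 6 h. Also apart were the hair follicle markers (0.01 to 0.33 at 24 h, -0.14 to -0.09 at 6 h) and, narrowly, the endothelium markers (0.0611 to 0.106, against -0.054 to 0.0599). The remaining sets overlapped in KO, and the part of these shifts in the result was not tested. Selenbp1 had like sizes in both genotypes between 6 h and 24 h, 0.58 in KO (adjusted p = 0.0639) and 0.50 in WT (adjusted p = 0.45), as had Aldh3a1, with 0.55 in KO (adjusted p = 0.1) and 0.61 in WT (adjusted p = 0.388).

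**Figure D3:**
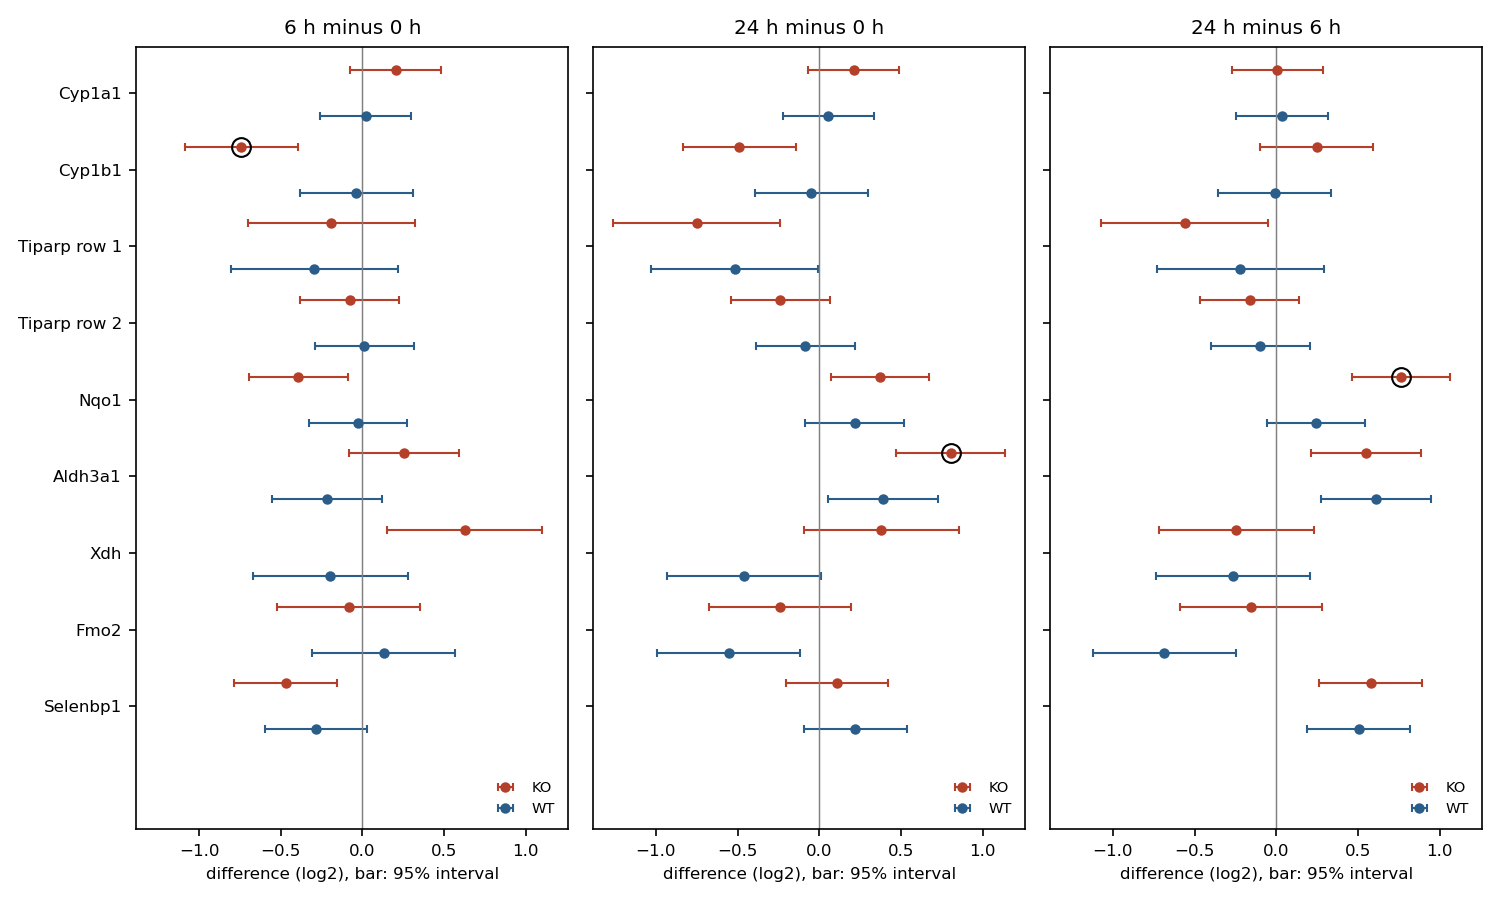
Differences between times (log2) of each of the 9 rows in KO (red, above) and WT (blue, below), with unadjusted 95% intervals from the limma fit; an open circle marks a row that passed. The circles stand at -0.74 for Cyp1b1 (6 h minus 0 h, KO), 0.80 for Aldh3a1 (24 h minus 0 h, KO) and 0.76 for Nqo1 (24 h minus 6 h, KO).

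The members did not move as 1 block across the arrays. Over the 18 arrays, which share groups and processing, the 36 pairs of rows had correlations from -0.52 (Cyp1b1 with Xdh) to 0.70 (the Tiparp rows). The next highest were 0.62 for Fmo2 with the second Tiparp row and 0.58 for Nqo1 with Selenbp1. The genes whose pattern was most like that of a member lay elsewhere in the table. For Cyp1b1 they were Fnbp1, Bbs2 and Cpd (r = 0.95, 0.93 and 0.93), for Xdh Aldh18a1, Asns and Wdr46 (0.94, 0.92 and 0.91) and for the first Tiparp row Zfp655, Chd1 and Kdm7a (0.93, 0.93 and 0.93). For Cyp1a1 they were Krtap28-13, Slc39a2 and Plcg2 (0.83, 0.80 and 0.80), and for Nqo1 Foxm1, Agpat2 and Naaa (0.82, 0.82 and 0.81). For Aldh3a1 they were Gpn2, Rab34 and Pxylp1 (0.85, 0.83 and 0.81), for Fmo2 Olfr996, Rnf222 and Grk5 (0.83, 0.83 and 0.82) and for Selenbp1 Bgn, Lrrc45 and Lbh (0.81, 0.80 and 0.80). For the second Tiparp row they were Fbxo33, Yod1 and Zdhhc2 (0.82, 0.80 and 0.80). These were the highest of the tested rows for each member, predicted models and small RNAs left out, and are given as a description.

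Around the enzymes, the AhR machinery and further targets were read from 4 lists drawn up from general knowledge. Of the receptor complex and its partners 7 of 9 were measured. Ahr was lower in KO than in WT at 6 h and in the average, as given above, and 0 of the others passed between genotypes. In those comparisons 0.0978%, 2.18% and 0.017% of all rows passed at 0, 6 and 24 h, and 0.374% in the average. The list's median KO minus WT differences were -0.07, -0.02 and -0.08 at 0, 6 and 24 h. Within KO the Ahr row also passed against 0 h, with -0.65 at 6 h and -0.62 at 24 h. These calls held in 2 and 3 of the 6 fits that left out 1 array. Its WT means were 0.29, 0.43 and 0.04 at 0, 6 and 24 h. Arnt, the DNA-binding partner, differed by 0.10, -0.02 and -0.16 at 0, 6 and 24 h, and Ahrr, the AhR repressor and itself a textbook AhR target, by -0.07, -0.07 and 0.01. Of 20 other AhR targets 13 were measured, Ahrr among them. Their median KO minus WT differences were -0.07, -0.07 and -0.10 at 0, 6 and 24 h. Ptgs2, the inducible cyclooxygenase, was lower in KO than in WT by 2.04 at 0 h (limma adjusted p = 0.0372). This call held in 0 of the 6 fits that left out 1 array. Nfe2l2, which encodes NRF2, was -0.28, -0.09 and -0.07 in KO at 0 h, against 0.43, 0.20 and 0.15 in WT. Averaged over the times it was lower in KO than in WT by 0.25 (SE 0.0496, limma adjusted p = 0.0428). That call held in 4 of the 18 fits that left out 1 array, and the differences ran from -0.27 to -0.22 over 24 alternatives. Cyp1a2, the liver-type sister of Cyp1a1, differed by 0.04, 0.02 and -0.05.

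Of 18 NRF2 targets other than Nqo1, 16 were measured, and at 24 h against 0 h in KO 6 rose, 1 fell and the others did not pass, with a median of 0.27 against 0.02 for all rows, of which 9.56% passed. The genes that rose were Gsta4, a glutathione transferase, by 3.91 (SE 0.527, adjusted p = 0.0015), Akr1b8 by 1.05, Pgd of the pentose phosphate pathway by 0.51, Gsr by 0.43, Taldo1 by 0.43 and Gclm, a subunit of the glutathione-making ligase, by 0.32. Me1, the malic enzyme, fell by 0.50. Gsta4 passed in 6 of 6 fits that left out 1 array, Gclm and Me1 in 3, Akr1b8, Pgd and Gsr in 2 and Taldo1 in 1. Nqo1 had 0.37 in that comparison (adjusted p = 0.122). In WT 0 of 16 passed, against 0.0298% of all rows, with a median of 0.06 against 0.01 for all rows. Between genotypes the same list had a median of -0.16 at 0 h with 14 of 16 below 0, against 51.5% of all rows. There 0 passed, against 0.0978% of all rows. At 6 h, where 2.18% of all rows passed, the KO minus WT difference passed for Gsta4 (2.66) and for Ephx1, the microsomal epoxide hydrolase. Ephx1 differed by -0.55 (limma adjusted p = 0.0378). The calls of Gsta4 and Ephx1 held in 3 and 1 of the 6 fits that left out 1 array. At 6 h against 0 h in KO, where 4.98% of all rows passed, 1 gene of the list rose and 2 fell. Gsta4 differed by 3.01, Ephx1 by -0.48 and Me1 by -0.47. The list's median there was 0.18, against 0.02 for all rows. Those calls of Ephx1 and Me1 held in 1 and 0 of the 6 fits that left out 1 array.

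Close relatives of the members served as a second comparison, with 17 of 18 measured. Their median KO minus WT difference was 0.03, 0.00 and 0.02 at 0, 6 and 24 h. Aldh3b2, an aldehyde dehydrogenase of the Aldh3 family, was -0.51, -0.46 and -0.40 in KO at 6 h, against -0.12, -0.05 and 0.16 in WT. There it was lower in KO than in WT by 0.45 (SE 0.0948, limma adjusted p = 0.0289), with the groups apart. It rose by 0.68 in KO between 6 h and 24 h (adjusted p = 0.00894). Parp14, a mono-ADP-ribosyltransferase of the same family as Tiparp, fell by 0.57 in KO at 24 h against 0 h (adjusted p = 0.00874), and Parp9 by 0.57 (adjusted p = 0.0498). Among other AhR targets Hes1, a Notch-pathway repressor, fell in KO by 0.88 at 6 h and 0.57 at 24 h, Slc46a3 by 0.62 at 6 h and the EGFR ligand Ereg by 0.86 at 24 h. Ptgs2 rose in KO by 1.35 at 6 h and 1.60 at 24 h and the amino acid transporter Slc7a5 by 0.87 at 24 h. Src, a kinase found in the AhR complex, rose by 0.31 in KO at 24 h. Of all rows 4.98% passed at 6 h and 9.56% at 24 h against 0 h in KO. In the lists of these genes 0 passed against 0 h in WT, against 0% of all rows at 6 h and 0.0298% at 24 h. In the difference between the responses 0 passed, against 0.731% of all rows at 6 h and 0% at 24 h. The changes of these genes are thus not shown to be particular to KO. WT means at 0 h and 24 h were 0.43 and -0.02 for Ereg and 0.03 and -0.34 for Parp14, the direction of KO. For Ptgs2 they were 0.67 and 0.11, the other direction. Of 34 results of genes of the 4 lists that passed, 8 passed whichever array was left out. Between genotypes these were Ahr at 6 h and in the average. Against 0 h in KO they were Gsta4 at 6 h (by 3.01) and 24 h, Hes1 at 6 h, and Parp14 and Ptgs2 at 24 h. The last was Aldh3b2 between 6 h and 24 h in KO. The others lost the call without at least 1 array, and none of the 34 changed sign under an alternative.

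**Figure D4:**
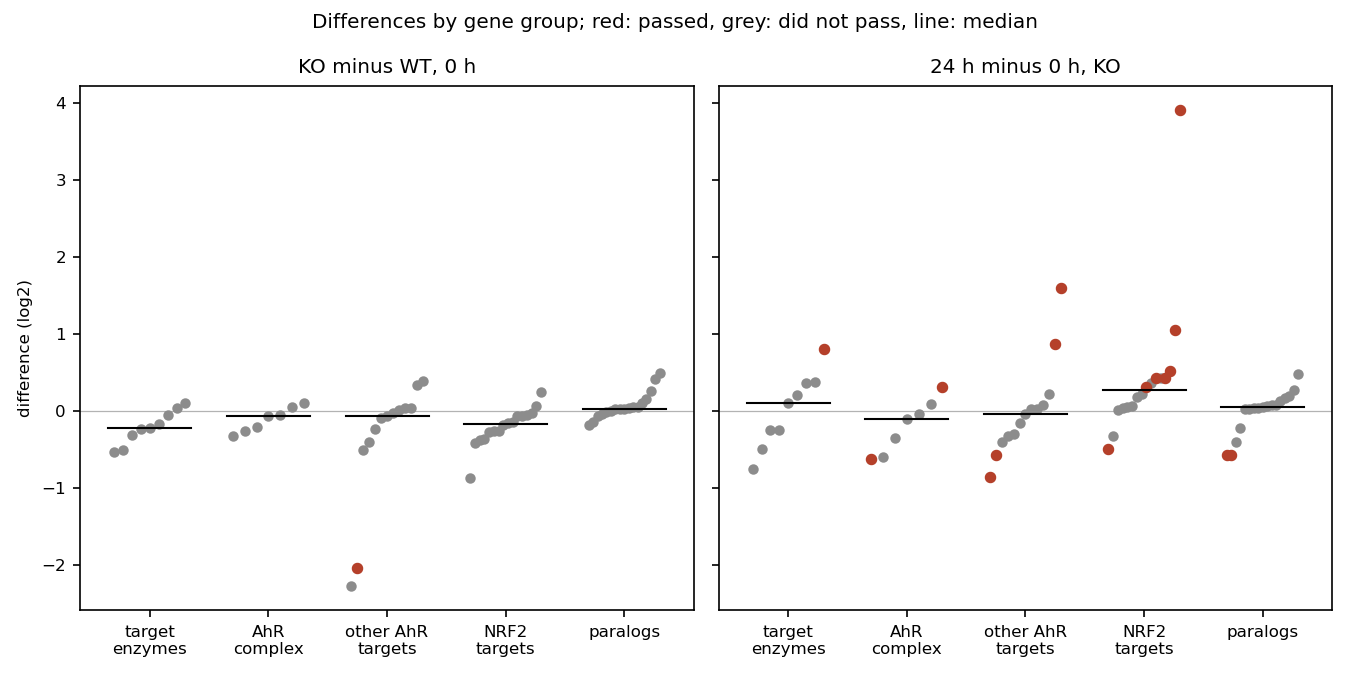
Differences (log2) of the 9 target enzyme rows and of the measured genes of 4 lists, KO minus WT at 0 h (left) and 24 h minus 0 h in KO (right); red points passed, grey points did not, and the line is the median. The median of the target enzymes is -0.21 on the left and 0.11 on the right, and the highest point on the right is Gsta4 at 3.91.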

How the data were processed

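Total RNA of epidermal sheets was made into biotin-labelled cDNA for Affymetrix arrays, per the labels' protocols. The authors deposited 1 table of 33793 rows by 18 arrays, with values taken as log2. Their range is -6.4 to 4.3, and 100% of rows have a median of 0 within 1e-06, so rows had been centred. A natural log would enlarge every difference by the same factor. How the probes were summarised and scaled: not given in the sources used here. Medians of the arrays lay between -0.019 and 0.011.

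Rows were named through the platform's gene table; 23521 name 1 gene, 1814 several and 8458 none, and the 23521 were tested without a filter on dim rows. limma 3.58.1 in R 4.3.3 fitted a mean per group over 18 arrays (12 residual and 2.76 prior degrees of freedom) for 10 comparisons, and 3 were added after the values were seen. The code was tested on simulated data. The number of arrays limits the precision, and p-values measure only the spread between these arrays. An exact permutation test of 3 against 3 arrays cannot give a p below 0.1, so none is reported.

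Groups and replicate numbers came from the titles. Named were all members, Ahr, list genes that passed and the 3 genes most like each member, without predicted models and small RNAs. A gene with several rows was read by the row of largest SD, members by every row. Arnt, Ahrr, Cyp1a2 and Selenbp2 were named after their values were seen. Members and lists were chosen with earlier results of these data known. A planned protein comparison of near copies was not made, as no protein sequences were used here. Same-numbered arrays did not deviate together (r from -0.46 to 0.25 over 27 pairs), so the numbers were not used as pairs. Alternatives were quantile normalisation, array weights, all rows tested, the compared groups alone, the replicate block, the number class as a block and within each class, and each array left out; leaving out the 6 h pair of higher label numbers was added after seeing the data.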

Additional observations from a re-analysis of the deposited data

Results flagged for a closer look

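The glutathione transferase gene Gsta4, a member of the NRF2 list and not of the target enzymes, differed between genotypes in its 6 h response by a test of that difference. Its 6 h response was larger in KO than in WT by 3.52 log2 (SE 0.746, limma adjusted p = 0.047), with values of 2.76, 0.85 and 1.96 in KO at 6 h, against -0.24, -1.12 and -1.05 in WT at 6 h. At 0 h it was -1.002, -1.32 and -1.14 in KO, against -0.87, -0.25 and 0.24 in WT. The call held under 5 of 20 alternatives, and the difference ran from 3.07 to 4.03.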

How the results depend on the processing

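The number of the 9 target enzyme rows that passed changed under some alternatives. The counts over all rows changed as well, over the ranges given in the next paragraph. They are not matched to each alternative here, so a changed member count may follow a change in the whole table. Array weights gave 2 for KO against WT at 6 h (Cyp1b1 and Nqo1), 2 for 24 h against 0 h in KO and 1 for the genotype difference in the 6 h response (Cyp1b1). The number class as a block gave 1 for KO against WT at 6 h (Cyp1b1), 2 for 24 h against 0 h in KO and 0 for 24 h against 6 h in KO. The groups of a comparison alone gave 3 for 24 h against 0 h in KO (with Cyp1b1 and Xdh) and 0 for 24 h against 6 h in KO, as did quantile normalisation for the last. Within numbers below 3000 the count was 1 for KO against WT at 6 h and 0 for 6 h against 0 h in KO. Within numbers from 3000 up it was 2 for 6 h against 0 h in KO (with Xdh), 2 for 24 h against 0 h in KO and 0 for 24 h against 6 h in KO. Leaving out 1 array gave 0 to 2 for 6 h against 0 h in KO, 1 to 2 for 24 h against 0 h in KO, 0 to 2 for 24 h against 6 h in KO and 0 to 1 for the genotype difference in the 6 h response. In these fits Selenbp1 passed without KO replicate 1 of 6 h and Nqo1 at 6 h against 0 h without KO replicate 3 of 6 h. A group left with 1 array is assumed to vary like the others. The fit with the replicate block changed no member's call, with 1 member passing at 6 h and 1 at 24 h against 0 h in KO.

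Without the 6 h pair of higher label numbers, an alternative chosen after seeing the data, KO and WT at 6 h differed by -0.55 in Cyp1b1 (adjusted p = 0.153) and -0.51 in Nqo1 (adjusted p = 0.134). The counts over all rows are less steady: KO against WT at 6 h gave 513 rows, and 0 to 1660 under the alternatives; at 0 h 23, and 0 to 188; averaged 88, and 3 to 322. For 6 h against 0 h in KO the 1172 rows became 1 to 1856, for 24 h against 0 h in KO 2249 became 1029 to 3070, for 24 h against 6 h in KO 292 became 1 to 842 and for the genotype difference in the 6 h response 172 became 0 to 864. KO against WT at 24 h gave 4, and 1 to 12, and 24 h against 0 h in WT 7, and 0 to 390. Of 1836 recomputed member differences 112 had the other sign, none of a row that passed and none over 0.30 in reported size. Signal over background cannot be judged from centred values.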
